A study of Mus musculus with 8 samples.

Results

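The genes described here encode the machinery of the lysosome: cathepsins and other proteases, further hydrolases, lysosomal membrane proteins, the proton pump and the transcription factor TFEB. The list holds 39 genes, of 19057 named genes on the array. It was set by gene function, but with earlier results of these data known, so its shares of calls are descriptive. A gene was tested where at least 1 of its probes had a detection p under 0.01 on at least 4 of the 8 arrays, and 34 of the 39 passed, among 8252 named genes that passed in all.

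Dendritic cells came from CCL17E/+ mice of 2 to 5 months on a C57BL/6 background, in which 1 allele of the chemokine gene Ccl17 carries an EGFP reporter. All mice received 100 µg of LPS, the bacterial endotoxin, and the cells were taken 15 h later, so no group is without LPS. The lymph node (LN) group, 4 arrays, holds cells from mesenteric and peripheral nodes that were NK1.1-CD8alpha-CD11c+CD11b+ and expressed CCL17/EGFP. The spleen group, 4 arrays, holds cells of the same surface markers without CCL17/EGFP, sorted in parallel from the same mice. Organ and CCL17 status differ together, so their parts cannot be told apart. The number of mice behind each array is not given in the sources used here. Nothing in them says whether the arrays are separate animals or pools, so each p-value reflects only how far these 4 samples of a group differ.

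Lysosomes are acidic organelles in which dendritic cells cut internalised proteins into peptides for MHC class II. A vacuolar ATPase pumps protons into the lumen, the cathepsins and glycosidases work at that low pH, and heavily glycosylated membrane proteins such as LAMP1 shield the limiting membrane. TFEB and related factors drive many of these genes through a short promoter element, the CLEAR motif, and dendritic cells are known to hold their proteolysis below that of macrophages.

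Mean bead intensity ran from 239 to 521 over the arrays, and 30.4% to 33.1% of the probes were detected. Spleen replicate 4 stood apart, with the lowest intensity and a mean correlation of 0.895 with the other spleen arrays, against 0.947 to 0.956 for spleen replicates 1 to 3 and 0.974 to 0.979 for the LN arrays. The arrays lay on 2 BeadChips, replicates 1 and 2 of both groups on the first and replicates 3 and 4 on the second. Ccl17, on which the cells were sorted, had a mean log2 intensity of 12.51 in LN and 6.24 in spleen. Among defining markers, Cd74, H2-Ab1, Sirpa and Zbtb46 were detected on all 8 arrays, and Cd8a and Klrb1c, which encodes NK1.1, on 0. Flt3, another dendritic cell marker, was detected on 2 LN arrays and 0 spleen arrays. Klrd1 and Prf1, also natural killer cell markers, were detected on all 8 arrays. Their mean log2 intensities in LN and spleen were 10.90 and 11.27 for Klrd1 and 11.46 and 11.48 for Prf1. Of the gate's own markers, Itgax (CD11c) was above background on 3 arrays of each group, while Itgam (CD11b) was so on 1 LN array and on none (0) from spleen.

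Lysosomal genes did not move as a block. Of the 34 tested, 7 were higher in LN cells, 3 were lower, and 24 did not pass an adjusted p of 0.05 in limma, with p adjusted over all genes. That is 29.4% of the members, against 15.6% of all genes tested. By direction, 7.99% of all genes were higher in LN and 7.59% lower. The members higher in LN were Ctsa, Ctsz, Tpp1, Cst3, Gusb, Cd63 and Atp6v1b2, and those lower were Cln3, Npc1 and Laptm5. The median log2 fold of LN over spleen was 0.34 over the members and 0.03 over all genes, with 23 positive and 11 negative folds among the members. Of the 34, 32 were detected on all 8 arrays and 2, Tpp1 and Mcoln1, on 7.

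**Figure D1:**
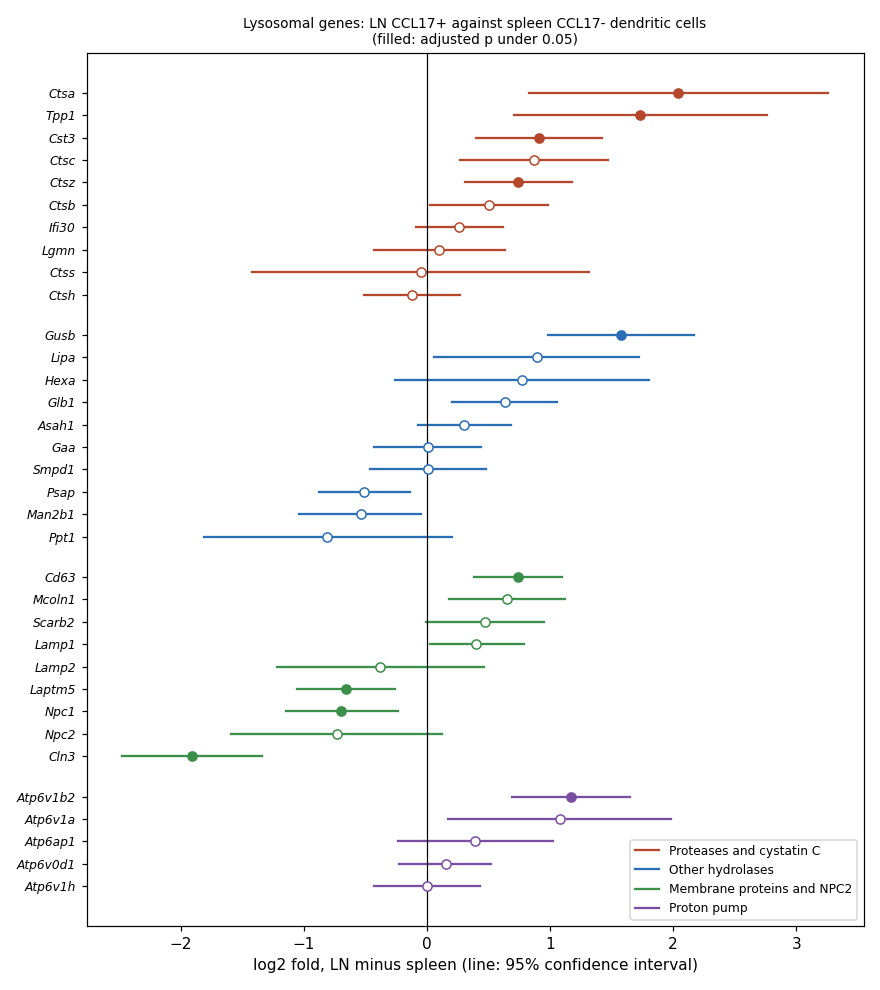
Log2 fold of LN over spleen for the 34 tested lysosomal genes, grouped by role, with the 95% confidence interval as a line (4 arrays per group). Filled points passed an adjusted p of 0.05. The proteases, counted with Cst3 and Ifi30, lean to the right, from -0.12 for Ctsh to 2.04 for Ctsa. The membrane proteins reach from -1.91 for Cln3 to 0.74 for Cd63.

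The number of calls depended on the arrays in the fit. Same-numbered LN and spleen arrays deviated together from their group means, and with replicate number as a block 18 members were called, against 21.1% of all genes. Of them 12 were higher (11.2% of all genes) and 6 lower (9.94%). That equal numbers mark the same mice is assumed. The block also takes up any difference between BeadChips, and BeadChip alone as a block gave 18 calls too. Without spleen replicate 4, 17 were called, against 24.1% of all genes, 11 higher (12.2%) and 6 lower (11.9%). Leaving out 1 of the other 7 arrays left 4 to 7 members called, the fewest without LN replicate 1, while 10.8% to 12.7% of all genes were called in those fits. Under every one of these fits the 10 calls above kept their direction.

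The proteases, counted with the inhibitor Cst3 and the thiol reductase Ifi30, gave the most upward calls. Of the 10 tested, 4 were higher in LN and 0 lower by limma (6 and 0 at an unadjusted p under 0.05), with a median log2 fold of 0.62. Here and below, the share of all genes at an unadjusted p under 0.05 is not given, so such counts have no background. The called share was 40.0%, against 15.6% of all genes tested (7.99% higher and 7.59% lower). The members that passed were Ctsa, the serine carboxypeptidase cathepsin A that also protects β-galactosidase and neuraminidase, and Ctsz, the carboxypeptidase cathepsin Z. Tpp1, a tripeptidyl peptidase lost in a childhood neuronal ceroid lipofuscinosis, and Cst3, the secreted cathepsin inhibitor cystatin C, passed too.

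Cst3 had log2 intensities of 15.43, 15.26, 14.59 and 14.83 on LN replicates 1 to 4 and 14.41, 14.44, 13.92 and 13.71 on spleen replicates 1 to 4. All LN values lay above all spleen values. The difference was 1.88-fold (log2 fold 0.91 ± 0.23 SE, n = 4 per group, adjusted p 0.0222 in limma). Within the first BeadChip the log2 fold was 0.92 and within the second 0.90. The call was lost without LN replicate 1 or 2 or spleen replicate 3 (adjusted p up to 0.0717).

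Tpp1 had 9.15, 9.17, 8.26 and 8.32 in LN and 7.60, 7.58, 7.29 and 5.50 in spleen. The groups did not overlap, and spleen replicate 4, where the gene was not detected, was far below the other spleen arrays. The log2 fold was 1.73 ± 0.46 (SE, adjusted p 0.0293 in limma), or 1.24 (adjusted p 0.00515) without that array. Without LN replicates 1, 2 or 4 or spleen replicate 3 it did not pass (adjusted p up to 0.0919).

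Ctsz had 12.61, 12.32, 12.59 and 12.63 in LN and 11.53, 11.72, 11.59 and 12.34 in spleen. Spleen replicate 4 reached into the LN range, just above LN replicate 2. The difference was 1.67-fold (0.74 ± 0.20 SE, adjusted p 0.0285 in limma), and 0.92 (adjusted p 0.000385) without spleen replicate 4. Its other probe gave 0.69 ± 0.19 (SE, adjusted p 0.0434 over all 14726 passing probes). The call rested on more than 1 array: it was lost when LN replicate 1, 3 or 4 or spleen replicate 1, 2 or 3 was left out (highest adjusted p 0.0853).

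Ctsa had 10.38, 8.31, 9.84 and 9.59 in LN and 6.58, 6.64, 8.07 and 8.67 in spleen. The LN values spread over more than 2 log2 units, and LN replicate 2 lay below spleen replicate 4. The log2 fold was 2.04 ± 0.55 (SE, adjusted p 0.03 in limma), with 2.74 within the first BeadChip and 1.35 within the second. Only the brightest of its 4 passing probes was called. The other 3 gave 0.26 ± 0.36, 0.25 ± 0.30 and -0.16 ± 0.32 (SE), and the mean over the 4 probes gave 0.60 (adjusted p 0.269). Omitting LN replicate 1, 3 or 4 or spleen replicate 1 or 2 also ended the call (highest adjusted p 0.096).

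Ctsc, the dipeptidyl peptidase cathepsin C that activates granule serine proteases, missed the threshold. It had 12.18, 12.19, 12.26 and 11.87 in LN and 11.58, 11.54, 11.54 and 10.36 in spleen. All LN values were above all spleen values, and spleen replicate 4 was far below the other 3. The log2 fold was 0.87 ± 0.27 (SE, adjusted p 0.0547 in limma), and it passed with replicate number as a block (adjusted p 0.0108) and without spleen replicate 4 (0.57, adjusted p 0.00831). Its 2 dimmer probes, at 0.81 ± 0.20 and 0.68 ± 0.18 (SE), passed over all probes (adjusted p 0.0219 and 0.0307).

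The endopeptidases that process antigen and invariant chain showed no call. Ctss, the main invariant chain protease of dendritic cells, had 9.59, 10.07, 8.58 and 8.57 in LN and 10.23, 10.21, 9.23 and 7.32 in spleen. Replicates 1 and 2 were higher than replicates 3 and 4 in both organs, and the groups overlapped throughout. Its log2 fold of -0.05 had a 95% confidence interval from -1.42 to 1.32, the widest of the members, so a change of either sign cannot be told from none. Ctsb, a broad cysteine protease with carboxydipeptidase activity, had 13.31, 13.29, 13.11 and 13.04 in LN and 12.70, 12.94, 13.06 and 12.04 in spleen. Only spleen replicate 3 entered the LN range, and the log2 fold was 0.50 ± 0.22 (SE, adjusted p 0.168 in limma).

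Other members of antigen processing had narrower intervals. Ctsh, an aminopeptidase, had a log2 fold of -0.12 (interval -0.51 to 0.27). Lgmn, the asparagine endopeptidase legumain, had 0.10 (-0.43 to 0.63). Ifi30, the thiol reductase GILT that opens disulfide bonds of antigens, had 0.26 (-0.09 to 0.62). Each interval leaves out a doubling or a halving of the level.

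**Figure D2:**
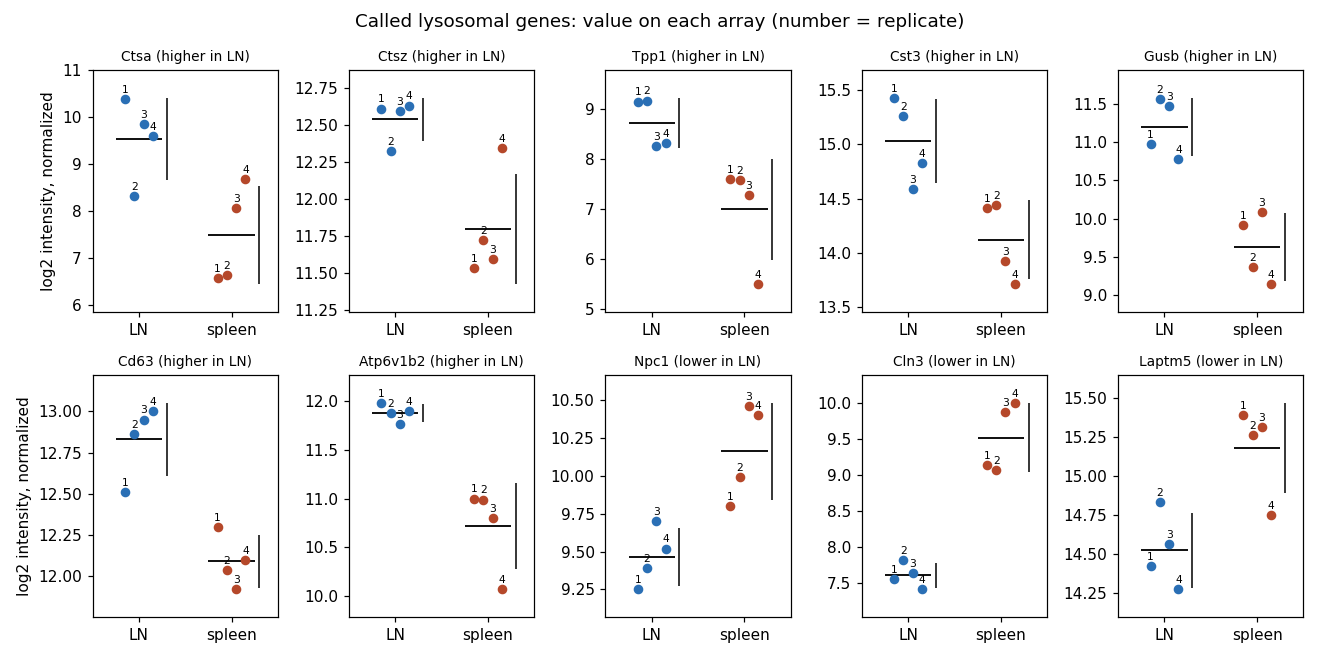
Normalized log2 intensity of the 10 called lysosomal genes on each array, with the replicate number at each point, the mean as a horizontal line and 1 SD either way as a vertical line (4 arrays per group; each panel has its own axis). The groups were apart for Tpp1, Cst3, Gusb, Cd63, Atp6v1b2, Npc1 and Cln3, and overlapped for Ctsa, Ctsz and Laptm5, where LN replicate 2 or spleen replicate 4 crossed over.

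Among the other hydrolases Gusb stood alone. Of the 10 tested, 1 was higher in LN, 0 were lower and 9 were not called by limma (3 higher and 2 lower at an unadjusted p under 0.05), with a median log2 fold of 0.16. The called share was 10.0%, against 15.6% of all genes tested. Gusb encodes β-glucuronidase, which removes glucuronic acid from glycosaminoglycans. It had 10.98, 11.57, 11.48 and 10.78 in LN and 9.91, 9.36, 10.09 and 9.14 in spleen. The lowest LN value was above the highest spleen value. The difference was 2.99-fold (1.58 ± 0.27 SE, adjusted p 0.00255 in limma), with 1.64 within the first BeadChip and 1.51 within the second. All 4 of its probes were called higher, with log2 folds from 0.70 to 1.66, and leaving out any 1 array kept the call (adjusted p up to 0.0124). The promoter of Gusb, from 250 bases before its listed start to 50 after, is shown because this gene was the one call among the hydrolases. It holds none of the 4 E-box motifs searched for, which are given further on.
Gusb, GRCm38.p6 chr5:130003000-130003299, minus strand: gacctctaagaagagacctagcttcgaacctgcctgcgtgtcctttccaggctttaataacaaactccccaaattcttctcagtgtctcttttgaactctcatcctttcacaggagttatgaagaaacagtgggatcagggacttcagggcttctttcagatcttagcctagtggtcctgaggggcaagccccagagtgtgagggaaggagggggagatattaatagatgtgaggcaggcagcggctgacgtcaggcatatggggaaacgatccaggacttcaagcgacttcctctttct

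Among the hydrolases with positive folds, Glb1 and Lipa came closest to the threshold after Gusb. Glb1, the β-galactosidase of gangliosides and keratan sulfate, had 9.10, 9.28, 9.27 and 9.41 in LN and 8.52, 8.33, 8.80 and 8.91 in spleen. Its groups did not overlap, but the log2 fold of 0.63 ± 0.19 (SE) missed the threshold (adjusted p 0.0543 in limma, and 0.0394 with replicate number as a block). It passed without spleen replicate 4 (0.71, adjusted p 0.00979). Lipa, the acid lipase of cholesteryl esters and triglycerides, had 10.17, 9.74, 10.59 and 10.42 in LN and 8.72, 8.57, 9.86 and 10.21 in spleen. Only spleen replicates 3 and 4 entered the LN range. Its log2 fold was 0.89 ± 0.37 (SE, adjusted p 0.155 in limma, and 0.0235 with the block), or 1.31 within the first BeadChip and 0.47 within the second. Without spleen replicate 4 it was 1.18 (adjusted p 0.0163).

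Hexa, the α subunit of β-hexosaminidase, had 9.08, 9.07, 9.86 and 9.41 in LN and 7.83, 7.86, 8.52 and 10.13 in spleen. Its highest value was on spleen replicate 4 and the other 3 spleen values were below all LN values. The log2 fold was 0.77 ± 0.46 (SE, adjusted p 0.337 in limma), or 1.29 (adjusted p 0.0027) without that array. Of the remaining hydrolases, Gaa, the acid α-glucosidase of glycogen, had 0.01 (95% interval -0.43 to 0.44) and Smpd1, the acid sphingomyelinase, also 0.01 (-0.46 to 0.48). Asah1, the acid ceramidase, had 0.30 ± 0.17 (SE, adjusted p 0.291).

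The negative folds among the hydrolases did not pass either. Psap, the precursor of the saposins that present sphingolipids to their enzymes, had 12.94, 13.03, 13.54 and 13.13 in LN and 13.64, 13.61, 13.91 and 13.53 in spleen. Only LN replicate 3 lay above the lowest spleen value, by a margin of less than the spread within either group. Its log2 fold was -0.51 ± 0.17 (SE, adjusted p 0.0657 in limma), with adjusted p 0.0243 with replicate number as a block, 0.025 without spleen replicate 4, and a call without LN replicate 3 as well. Man2b1, the acid α-mannosidase, had 11.80, 11.70, 12.11 and 11.96 in LN and 12.22, 11.91, 12.76 and 12.86 in spleen. Spleen replicate 2 lay within the LN range and the other spleen values above it. Its log2 fold was -0.54 ± 0.22 (SE, adjusted p 0.143, and 0.0405 with the block), and that of its other probe -0.58 ± 0.24. Ppt1, the palmitoyl-protein thioesterase, had -0.81 ± 0.45 (SE, adjusted p 0.295), with 8.41 on spleen replicate 4 against 6.15 to 7.12 on the other spleen arrays.

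The membrane proteins split in direction. Of the 9 tested, counting the luminal cholesterol carrier Npc2 with them, 1 was higher in LN and 3 were lower (3 and 3 at an unadjusted p under 0.05), with a median log2 fold of -0.38. That is 44.4% called, against 15.6% of all genes tested (7.99% higher and 7.59% lower). The higher one was Cd63, a tetraspanin of late endosomes and exosomes. The lower ones were Cln3, the battenin of juvenile neuronal ceroid lipofuscinosis, Npc1, which exports cholesterol from the lysosome, and Laptm5, a haematopoietic transmembrane protein that sends receptors to lysosomes.

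Cln3 had the largest fold of the membrane proteins and the smallest adjusted p of all members. Its values were 7.55, 7.82, 7.64 and 7.41 in LN and 9.14, 9.07, 9.87 and 10.00 in spleen. The groups lay more than 1 log2 unit apart at their nearest arrays. The level was 3.76-fold lower in LN (-1.91 ± 0.26 SE, adjusted p 0.000631 in limma). It was the one member called within the second BeadChip, where 4.37% of all genes were (-2.41, adjusted p 0.0156), and it was called within the first (-1.41, adjusted p 0.000934), where 22.0% of all genes were. No omission of 1 array ended the call (adjusted p up to 0.00387). A single probe stood for this gene. RefSeq lists 2 starts for it, and the promoter of the downstream one is shown. It holds the only exact 10-base CLEAR consensus among the members whose promoters were searched, in capitals.
Cln3, GRCm38.p6 chr7:126583187-126583486, minus strand: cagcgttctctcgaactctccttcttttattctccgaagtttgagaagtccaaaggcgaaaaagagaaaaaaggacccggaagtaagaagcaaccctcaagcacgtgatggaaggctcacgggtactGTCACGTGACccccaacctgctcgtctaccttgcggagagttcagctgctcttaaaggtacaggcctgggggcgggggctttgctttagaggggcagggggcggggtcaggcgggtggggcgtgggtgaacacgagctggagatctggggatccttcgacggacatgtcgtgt

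Cd63 had 12.51, 12.86, 12.95 and 13.00 in LN and 12.30, 12.04, 11.92 and 12.10 in spleen. All LN values were above all spleen values, with replicate 1 of each organ nearest to the other group. The difference was 1.67-fold (0.74 ± 0.16 SE, adjusted p 0.0107 in limma), with 0.51 within the first BeadChip and 0.97 within the second. Its other 2 probes had 0.68 ± 0.24 and 0.42 ± 0.30 (SE) and were not called.

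Npc1 had 9.25, 9.39, 9.70 and 9.52 in LN and 9.80, 9.99, 10.46 and 10.40 in spleen. The groups did not overlap, though LN replicate 3 and spleen replicate 1 lay close together. The log2 fold was -0.70 ± 0.21 (SE, adjusted p 0.0444 in limma), and the call was weak: it was lost when any LN array or spleen replicate 2 or 3 was left out (highest adjusted p 0.134). Its other 2 passing probes gave -0.57 ± 0.23 and -0.10 ± 0.16 (SE), and the mean over the 3 probes -0.46 (adjusted p 0.0769). Npc2, which hands cholesterol to NPC1, had 11.21, 11.76, 10.51 and 10.67 in LN and 12.47, 12.31, 11.42 and 10.88 in spleen. Replicates 1 and 2 were higher than replicates 3 and 4 in both organs. Its log2 fold of -0.73 ± 0.38 (SE, adjusted p 0.261 in limma) passed with replicate number as a block (adjusted p 0.0273) and without spleen replicate 4 (-1.03, adjusted p 0.0361).

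Laptm5 had 14.42, 14.83, 14.56 and 14.27 in LN and 15.39, 15.26, 15.31 and 14.75 in spleen. Spleen replicate 4 fell just below LN replicate 2, and the other spleen values were above all LN values. The level was 1.58-fold lower in LN (-0.66 ± 0.18 SE, adjusted p 0.0318 in limma), or -0.80 (adjusted p 0.00177) without spleen replicate 4. The call was lost when LN replicate 1, 3 or 4 or spleen replicate 1, 2 or 3 was left out (highest adjusted p 0.104).

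The LAMP proteins, the most abundant of the lysosomal membrane, were not called. Lamp1 had a log2 fold of 0.40 ± 0.17 (SE, adjusted p 0.165 in limma), with 13.32, 13.43, 13.93 and 13.89 in LN and 13.21, 13.08, 13.32 and 13.35 in spleen. Lamp2, whose splice forms include the receptor of chaperone-mediated autophagy, had 11.90, 11.67, 11.25 and 11.30 in LN and 12.20, 12.35, 12.48 and 10.61 in spleen. Spleen replicate 4 was the lowest of the 8 and the other 3 spleen values the highest. Its log2 fold was -0.38 ± 0.38 (SE, adjusted p 0.593), or -0.81 (adjusted p 0.00547) without that array, and its 6 passing probes ran from -0.75 to 0.05. Scarb2, the receptor that carries glucocerebrosidase to the lysosome, had 0.47 ± 0.21 (SE, adjusted p 0.192), with all LN values above all spleen values. Mcoln1, the calcium channel mucolipin 1, had 6.44, 6.56, 6.80 and 6.46 in LN and 6.11, 5.86, 6.17 and 5.55 in spleen. Its groups did not overlap either, at a log2 fold of 0.65 ± 0.21 (SE, adjusted p 0.068, and 0.049 with the block). Over all members 9 had every LN value above every spleen value and 2 had every one below, 32.4% in all against 22.2% of all genes (12.2% above and 9.94% below).

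The proton pump gave 1 call among 5 tested subunits, or 20.0%, against 15.6% of all genes tested. Atp6v1b2, the B2 subunit of the catalytic V1 sector, had 11.98, 11.88, 11.76 and 11.90 in LN and 11.00, 10.99, 10.80 and 10.07 in spleen. The LN values had an SD of 0.09 and were all above the spleen values. The difference was 2.25-fold (1.17 ± 0.22 SE, adjusted p 0.00439 in limma), with 0.94 within the first BeadChip and 1.40 within the second, and no omission of 1 array ended it (adjusted p up to 0.0188). Atp6v1a, the catalytic A subunit that pairs with it, had 9.19, 9.61, 8.63 and 8.52 in LN and 8.58, 8.40, 7.94 and 6.72 in spleen. Within each BeadChip both LN values were above both spleen values. Its log2 fold of 1.08 ± 0.41 (SE, adjusted p 0.112 in limma) passed with replicate number as a block (adjusted p 0.0127).

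The other subunits showed smaller folds. Atp6v1h, the regulatory H subunit, had 0.00 (95% interval -0.43 to 0.43) and Atp6v0d1, the d1 subunit of the membrane sector, 0.15 (-0.23 to 0.52), with 4 probes between 0.06 and 0.32. Atp6ap1, an accessory protein that helps to assemble the pump, had 0.39 ± 0.28 (SE, adjusted p 0.447). A doubling of these 3 subunits lay outside the interval for Atp6v1h and Atp6v0d1 and just inside it for Atp6ap1, whose upper bound was 1.02.

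**Figure D3:**
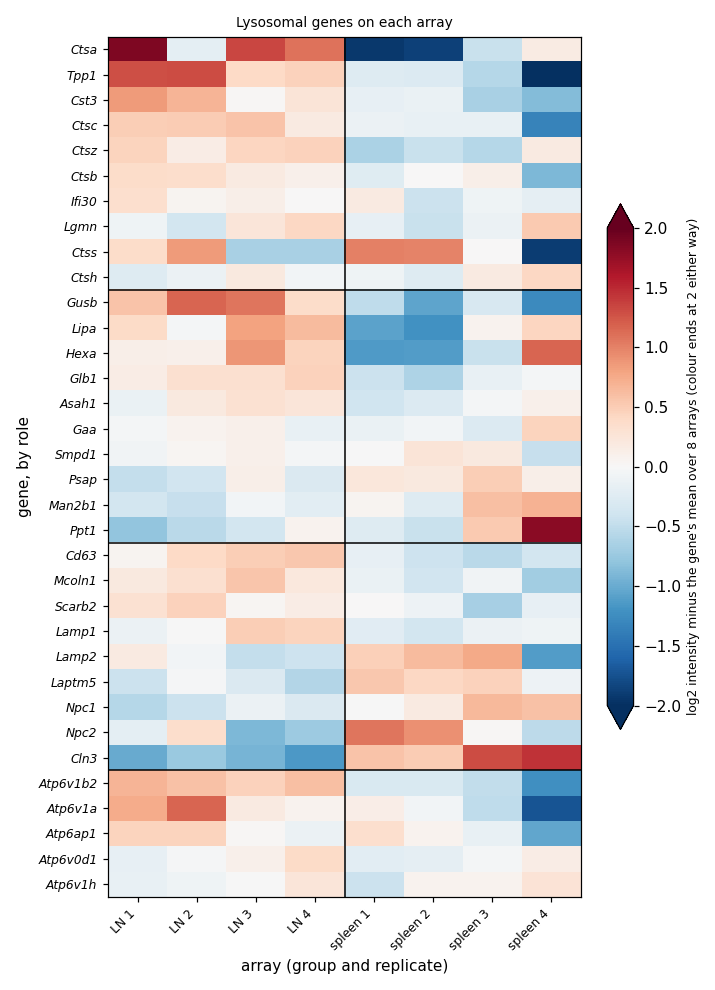
Normalized log2 intensity of the 34 tested lysosomal genes on each of the 8 arrays, as the difference from each gene's mean (colour scale in log2 units, ending at 2 either way), with roles divided by horizontal lines and groups by the vertical line. Spleen replicate 4 was the lowest spleen array for 15 genes, such as Tpp1, Ctss and Atp6v1a, and the highest for 15 others, such as Hexa, Ppt1 and Lgmn.

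Members that were not tested had no level above background in most arrays. Ctsd, the aspartic protease cathepsin D, Ctsl, the cysteine protease cathepsin L, and both probes of Tfeb in LN cells were detected on 0 arrays, and 1 Tfeb probe was detected on 1 spleen array. Gla, the α-galactosidase A, was detected on 3 spleen arrays and 0 LN arrays, with 4.79, 4.86, 4.53 and 4.82 in LN and 6.09, 5.80, 4.89 and 5.71 in spleen. It missed the filter by 1 array. Cd68, the macrophage scavenger sialomucin, had no named probe in the gene table used here and was not analysed. A signal near background on a single probe does not show that the transcript was absent.

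Spread within a group was larger in spleen, where replicate 4 was the lowest array for 15 members and the highest for 15 others. How much of the spread came from that array was not tested. The SD of a member over 4 arrays had a median of 0.23 in LN and 0.39 in spleen, and 29 of the 34 members varied more in spleen. Within the first BeadChip 19 members were called (22.0% of all genes), 13 higher (10.7%) and 6 lower (11.3%). Within the second 0 were higher (2.16% of all genes) and 1 was lower (2.22%), in limma with 2 arrays per group, against 9 and 5 at an unadjusted p under 0.05. The share of all genes at that unadjusted threshold is not given, so the 9 and 5 cannot be read as a result about the members. Of the 34 members, 30 had folds of the same sign on both BeadChips, 21 positive and 9 negative, among them all 10 called members. The 4 with opposite signs were Ctss, Gaa, Smpd1 and Atp6v1h. The 10 were called from the arrays of both BeadChips together, so their shared sign is no separate check of the calls. The share of all genes with the same sign on both BeadChips is not given here, so the 30 have no background to be set against.

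**Figure D4:**
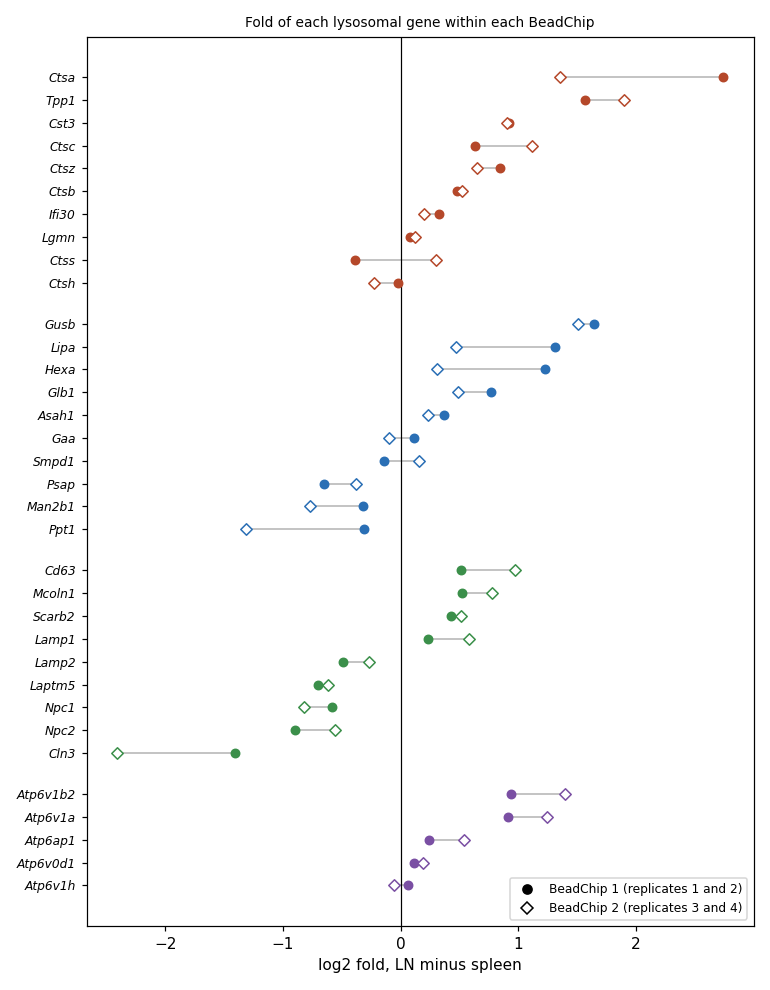
Log2 fold of LN over spleen for each lysosomal gene within the first BeadChip (filled circles, replicates 1 and 2) and within the second (open diamonds, replicates 3 and 4), 2 arrays per group in each. Gusb and Cst3 had nearly equal folds on both, Cln3 was lower on both at -1.41 and -2.41, and Ctsa differed most among the called genes, with 2.74 and 1.35.

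Probes to the same gene agreed in sign for most members. The array held 84 named probes to members, of which 63 passed the detection filter, and 15 of these were called with p adjusted over all probes, against 12.4% of all passing probes. Of them 13 were higher (6.25% of all probes) and 2 lower (6.18%). Of 16 members with more than 1 passing probe, 0 had probes called in opposite directions, and 3 (Asah1, Ctsa and Lamp2) had folds of both signs.

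**Figure D5:**
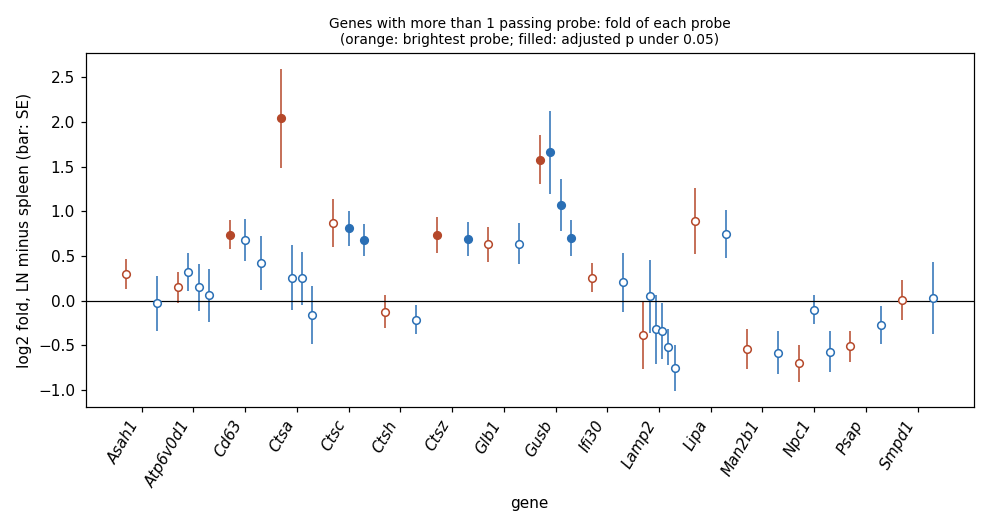
Log2 fold of LN over spleen ± SE for each passing probe of the 16 lysosomal genes with more than 1 (4 arrays per group; orange marks the brightest probe, filled points an adjusted p under 0.05 over all probes). The 4 Gusb probes were all called, from 0.70 to 1.66, whereas for Ctsa 1 probe lay at 2.04 and the other 3 between -0.16 and 0.26.

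A CLEAR-type motif was looked for in the promoters of the members. RefSeq windows of 300 bases, from 250 before a listed start to 50 after, were found for 33 of the 39 members (39 windows) and for 27025 genes in all (32851 windows). Ctsb, Ctsh, Asah1, Atp6v1h and the called genes Npc1 and Atp6v1b2 had no window and were not searched. Searched on both strands were TCACGTGA, called the core here, the CLEAR consensus, which is that core with a G before and a C after it, the E-box CACGTG that lies inside both, and the variant TCATGTGA. The consensus was found in 1 member of 33 (3.03%) and in 0.37% of all genes, the core in 8 (24.2%) and 1.12%, the E-box in 13 (39.4%) and 8.09%, and the variant in 4 (12.1%) and 1.15%. The members with the core, beside Cln3, are shown with it in capitals and 26 bases or the window's end on either side, because they set the motif beside unlike folds.
Ctsa, GRCm38.p6 chr2:164833734-164833810, plus strand: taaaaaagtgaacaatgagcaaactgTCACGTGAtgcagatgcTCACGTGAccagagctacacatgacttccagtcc
Ctsd, GRCm38.p6 chr7:142387893-142387952, minus strand: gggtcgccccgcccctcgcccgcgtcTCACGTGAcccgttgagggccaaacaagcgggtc
Ifi30, GRCm38.p6 chr8:70766827-70766886, minus strand: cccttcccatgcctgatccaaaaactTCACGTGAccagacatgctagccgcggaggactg
Gla, GRCm38.p6 chrX:134601167-134601255, minus strand: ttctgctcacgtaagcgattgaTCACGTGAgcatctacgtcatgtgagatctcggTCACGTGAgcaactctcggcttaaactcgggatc
Mcoln1, GRCm38.p6 chr8:3500447-3500506, plus strand: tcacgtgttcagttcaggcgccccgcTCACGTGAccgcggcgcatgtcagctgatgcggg
Atp6v0d1, GRCm38.p6 chr8:105566035-105566094, minus strand: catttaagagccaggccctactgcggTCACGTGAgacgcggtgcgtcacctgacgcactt
Atp6v1a, GRCm38.p6 chr16:44139358-44139417, minus strand: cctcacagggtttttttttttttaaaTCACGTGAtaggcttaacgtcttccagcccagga

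Genes with the core did not share a direction. Of the 8, Cln3 was lower in LN (-1.91) and Ctsa higher (2.04), while Ifi30 (0.26), Mcoln1 (0.65), Atp6v0d1 (0.15) and Atp6v1a (1.08) were not called and Ctsd and Gla were not tested. Ctsa and Gla hold the core 2 times each, and for Ctsa both lie at the downstream of its 2 listed starts. A letter match is a description of the sequence, not a bound site.

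The wider lysosomal system showed calls in both directions. Of 109 further genes listed by role, 76 were tested, 11 were higher in LN and 4 lower, 19.7% against the 15.6% of all genes, with a median log2 fold of 0.28. Leaving out 2 genes that passed the detection filter through the LN arrays alone, 9 of 74 were higher and 4 lower, or 17.6%. Among 18 hydrolases 3 were higher and 0 lower by limma, or 7 and 1 at an unadjusted p under 0.05. That is 16.7% called, near the share of all genes. Arsa, the arylsulfatase A of sulfatides, had 10.09, 10.17, 10.35 and 10.13 in LN and 8.69, 8.51, 8.25 and 8.30 in spleen, groups well apart (1.75 ± 0.18 SE, adjusted p 0.000125 in limma). Rnaset2b, one of a pair of nearly identical ribonuclease genes, had 0.96 ± 0.26 (SE, adjusted p 0.0293), and Dnase2a, the acid DNase, 0.85 ± 0.25 (SE, adjusted p 0.0462). The call of Rnaset2b was lost when LN replicate 3 or 4 or spleen replicate 1, 2 or 3 was left out (highest adjusted p 0.0954), and that of Dnase2a without any array but spleen replicate 4 (up to 0.127).

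Of 10 further pump subunits 2 were higher and 0 lower by limma, or 3 and 1 at an unadjusted p under 0.05. The called share was 20.0%, against 15.6% of all genes. Atp6v0a1, the a1 subunit of the membrane sector, had 12.93, 12.29, 12.66 and 12.47 in LN and 11.30, 10.64, 11.10 and 10.11 in spleen. Its groups lay about 1 log2 unit apart at the nearest arrays (1.80 ± 0.26 SE, adjusted p 0.00112 in limma). Atp6v0e had 0.49 ± 0.14 (SE, adjusted p 0.0404), a call lost without any array but spleen replicate 4 (adjusted p up to 0.131). Tcirg1, the a3 subunit typical of lysosomes, was chosen after its value was seen and had -0.52 ± 0.28 (SE, adjusted p 0.284).

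Cathepsin inhibitors went opposite ways. Cstb, the cytosolic stefin B, had 13.53, 13.48, 13.84 and 13.78 in LN and 12.21, 12.31, 12.36 and 11.59 in spleen (1.54 ± 0.19 SE, adjusted p 0.000467 in limma). Cst7, the cystatin F that enters lysosomes and curbs cathepsin C, had 6.02, 6.21, 5.52 and 5.84 in LN and 7.11, 7.20, 7.31 and 7.49 in spleen (-1.38 ± 0.22 SE, adjusted p 0.00161). Neither pair of groups overlapped, and no omission of 1 array ended either call. Of 3 further cathepsins tested, Ctsw, a cathepsin of natural killer and T cells, was lower (-1.43 ± 0.24 SE, adjusted p 0.00246). Serpinb6a, the third inhibitor tested, had 0.67 ± 0.24 (SE, adjusted p 0.0931).

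Of 19 further membrane proteins 2 were higher and 1 lower, or 15.8%, against 15.6% of all genes. The 2 higher ones, Laptm4b and the glycoprotein gene Gpnmb, were detected on all 4 LN arrays and 0 spleen arrays. They passed the detection filter only through the group where they are high, so their calls are a description and no support for a count. The level in LN was at least 1.47-fold that in spleen for Laptm4b and at least 1.51-fold for Gpnmb. These bounds set the LN mean against the lowest detected signal of each spleen array. Slc15a3, a lysosomal carrier of histidine and peptides, was lower (-1.20 ± 0.27 SE, adjusted p 0.0136).

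Sorting and regulatory genes were mostly not called, with 21.4% and 11.1% passing, against 15.6% of all genes. Of 14 genes of delivery to lysosomes 2 were higher, Gga2, a trans-Golgi adaptor (1.41 ± 0.20 SE, adjusted p 0.000999 in limma), and Gnptg, a subunit of the enzyme that makes the mannose 6-phosphate tag (0.65 ± 0.19 SE, adjusted p 0.0399). Sort1, the sorting receptor sortilin, was lower (-1.14 ± 0.20 SE, adjusted p 0.00276), a call lost under median scaling. Of 9 regulators, Rragd, a Rag GTPase of nutrient sensing at the lysosome, was higher (0.92 ± 0.23 SE, adjusted p 0.0237), and Tfe3, the relative of TFEB, was not called (0.29 ± 0.19 SE, adjusted p 0.378). The call of Gnptg was lost without any array but spleen replicate 4 (adjusted p up to 0.122), and that of Rragd when LN replicate 1, 2 or 4 or spleen replicate 1 or 3 was left out (up to 0.082).

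Markers of other cell types also differed between the groups. In sorted bulk samples, more cells of a type and more RNA per cell cannot be told apart. Macrophages are rich in lysosomes, and of 17 macrophage markers 12 were tested. By limma 0 were higher in LN (3 at an unadjusted p under 0.05) and 1, the red pulp factor Spic, was lower. The median log2 fold of the 12 was 0.40. Their summed normalized intensity was 2570 to 3161 in LN and 4715 to 6144 in spleen, but Spic made up the spleen excess: without it the sum was 2088 to 2575 in LN and 1580 to 2305 in spleen, with 7 positive and 4 negative folds. Among these C1qc, a complement component, had 1.04 (adjusted p 0.0628 in limma) and Vcam1, an adhesion molecule, 0.83 (adjusted p 0.114). Siglec1 and Cd163 were detected on 0 arrays. Of 6 tested monocyte markers (of 8 listed) 1 was higher, the lysozyme gene Lyz2, which is itself a lysosomal enzyme, and 3 were lower. Their sum was 4397 to 6112 in LN and 7957 to 9533 in spleen, and Ccr2 was detected on 0 arrays.

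Further lists went both ways. Of 6 tested plasmacytoid markers (of 9) 4 were lower in LN, with a sum of 5171 to 6614 against 14112 to 29371 in spleen, and Ccr9 on 0 arrays. The lower ones were Irf7, Tlr7, Pacsin1 and Bst2. Irf7 weighs most in the spleen sum, with a mean log2 intensity of 13.49 there and 11.35 in LN. Siglech (-0.37, adjusted p 0.524 in limma) and Tcf4 (-0.41, adjusted p 0.302) were not called. All 5 tested erythroid markers (of 7) were lower, with a sum of 196 to 454 against 5086 to 39813. Among them Alas2 was detected on 4 spleen arrays and 0 LN arrays. It passed the filter only through the group where it is high, so its call is a description. Of 4 tested natural killer cell markers, Ctsw among the listed ones, 2 were lower, with overlapping sums of 3655 to 6087 and 4324 to 7063, and Klrb1c on 0 arrays. The lower ones were Ctsw and Klra3, and Klra3 likewise passed the filter through the spleen arrays alone. Of 10 neutrophil markers on the array 0 passed the filter, 6 were detected on 0 arrays, and S100a8 and S100a9 were detected on 3 spleen arrays and on 0 LN arrays. Higher in LN was the 1 tested T cell marker of 9, Thy1 (2.67, adjusted p 0.000229 in limma), with a sum of 173 to 395 against 34 to 63. Itgae, which encodes the integrin CD103 and stands on the lists of cDC1 and of Langerhans and epithelial tract cells, was higher too (4.56, adjusted p 2.22e-05), while Xcr1, Cd207 and Epcam were on 0 arrays. It was the only call among 4 tested cDC1 markers (of 8). Irf8 (0.05), Batf3 (-0.11) and Clec9a (-0.43) were not called, and the median of that list was -0.03. Of 2 tested B cell markers (of 9) 0 were called by limma, or 0 higher and 1 lower at an unadjusted p under 0.05. Cd79b had -0.43 and Blk -1.26. The part of these cells in the lysosomal differences was not tested.

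Scaling also bears on directions. With arrays brought to a common median and no quantile step, the median log2 fold of all genes moved from 0.03 to 0.24, and 66.5% of all calls were then higher in LN against 51.3%. Under that scaling 11.4% of all genes were called, 7.57% higher and 3.82% lower. Of the members 6 were higher and 1, Cln3 (-1.64, adjusted p 0.00167 in limma), was lower. Among the 6, Glb1 (0.86, adjusted p 0.0374) and Lipa (1.14, adjusted p 0.0323) were new and not called in the main fit. The calls of Cst3, Cd63, Atp6v1b2, Npc1 and Laptm5 were lost, with log2 folds of 1.11, 0.91, 1.33, -0.47 and -0.48. Of the wider list Sort1 (-0.92, adjusted p 0.103), Atp6v0e (0.70, 0.243) and Gnptg (0.86, 0.169) lost their calls too. No called member changed sign.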

How the data were processed

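Total RNA of 8 sorted cell samples was labelled as biotinylated cRNA, per the labels' protocols. Per the file headers, the authors' unnormalized table gives every array 2 columns over 45281 probes, a bead intensity and its detection p-value. The authors' processed values were deposited on a log2 scale, as the values show, with a median of 6.28 in every array. They served as an alternative. The submitters' processing notes name Partek, with no role stated. The number of arrays limits the precision.

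Background was corrected by neqc (limma 3.58.1, R 4.3.3), which infers negative controls from the detection p, adds an offset of 16, quantile-normalizes and takes log2. The gene table named 34885 probes with 1 symbol; 18 had several and 10378 stay unnamed here, and the brightest passing probe stood for a gene. The LN minus spleen contrast was tested over all 8252 genes by lmFit and eBayes (trend on, two-sided, Benjamini-Hochberg), and the procedure was tested on simulated data. Further probes come from a fit over all 14726 passing probes. Figures used Python 3.11.15 and matplotlib 3.10.9. The members and lists were chosen with earlier results of these data known. Called members and members found in 1 group only were given with all 8 values, and so were further uncalled members, picked after their values were seen. Up to 3 called genes per role and direction were named from the wider list. Tcirg1, Tfe3 and Serpinb6a were added after their values were seen.

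LN and spleen cells were sorted side by side from the same animals, per the series' design text. Deviations of same-numbered arrays from the group means correlated at 0.31, 0.57, 0.27 and 0.54, so replicate number was fitted as a block in an alternative. The main fit had no block, so its p-values are unpaired. Still, LN replicates 1, 2 and 3 correlated best with spleen replicates 2 (0.41), 1 (0.58) and 4 (0.42), each on the same BeadChip. That equal numbers mark the same mice is thus an assumption. Alternatives were other background, scaling, filter, probe, variance and batch settings and the omission of each array.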

Additional observations from a re-analysis of the deposited data

Results flagged for a closer look

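In each group of 4 arrays the highest or lowest value of a tested member was set against the others, 68 sets in all, and chance alone would single out about 1 set in 20. In 4 sets 1 array lay far from the rest. Spleen replicate 4 was low for Ctsc, at 10.36 against 11.54 for the next array, for Tpp1, at 5.50 against 7.29, and for Lamp2, at 10.61 against 12.20. LN replicate 2 was low for Ctsz, at 12.32 against 12.59.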

How the results depend on the processing

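All 22 alternatives were planned and run. Requiring detection on all 8 arrays left out Tpp1, Mcoln1, Dnase2a, Laptm4b and Gpnmb. Gusb kept its call in 21 of the 22, Cln3 in 22, and Cd63 and Atp6v1b2 in 20 each. For all genes, 1285 were called, 361 within the second BeadChip and 889 to 1988 with 1 array left out.

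Among members, 10 were called (7 higher, 3 lower). With replicate number as a block 18 were called (12 higher, 6 lower), and with BeadChip as a block also 18 (12 and 6). Each replicate number lay on 1 BeadChip, so a part of pairing by animal cannot be told from that of the BeadChip. Within the first BeadChip 19 were called (13 and 6), and within the second 1 (0 and 1), where 2 arrays per group remained. By limma at an unadjusted p under 0.05 the second BeadChip had 9 members higher and 5 lower, with no share of all genes given at that threshold. Median scaling and no detection filter each left 1 lower. Leaving out 1 array gave 4 to 17 called, 3 to 11 higher and 1 to 6 lower. Of the wider list, 17 were higher with either block, and 4 were higher and 2 lower within the second BeadChip. Over the omissions 6 to 14 were higher, against 11 higher and 4 lower in the report. Over all genes 21.1% were called with either block, 22% within the first BeadChip and 4.37% within the second, against 15.6% in the main fit. The omissions gave 10.8% to 24.1% of all genes, median scaling 11.4% and no detection filter 5.66%.

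Some uncalled folds near 0 changed sign. Median scaling gave 0.03 for Ctsh and 0.14 for Ctss. Within the first BeadChip Smpd1 had -0.14, and within the second Ctss had 0.30 and Gaa -0.10. Over the omissions of 1 array Ctss ran from -0.69 to 0.28, Gaa from -0.09 to 0.15, Smpd1 from -0.14 to 0.10 and Lgmn from -0.03 to 0.29. The causes were not tested.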
